A study of Mus musculus with 24 samples.

Results

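The broad H3K4me3 peaks of C127 cells that lay over the promoter of a single protein-coding gene are described here. They were selected on width, at least 6000 bp, from the peaks within 250 bp of a transcription start site (TSS) of exactly 1 protein-coding gene, on chromosomes 1 to 19 and X. There were 410 such peaks among 8467 peaks over 1 coding gene, or 4.84%, and among 13447 peaks on these chromosomes in all. They belonged to 406 genes of 8272 with a peak of this kind, or 4.91%. These were set against the 4907 peaks of 2000 to 4000 bp over 1 coding gene, called typical peaks below. In the whole list 616 peaks reached 6000 bp, and the remainder of these lay at several coding genes, at a lncRNA alone or at no TSS.

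C127 is a mouse mammary epithelial cell line, and the cells profiled for H3K4me3 carried no tagged protein according to the labels. The 24 samples of the series fell into 12 groups, and the 3 H3K4me3 ChIP replicates gave the single peak list used here. The other 21 samples, ChIP of CFP1 and its mutants, KDM2B and RNA polymerase II with their controls and inputs, were not analysed here. The list holds peaks shared by the replicates, with no height, so there is no spread between replicates and the read depth is unknown. The label of an epithelial line was set against marker genes. A peak stood at 2 of 9 luminal markers (Esr1 and Gata3, while Krt8, Krt18, Epcam and Cdh1 had none), at 0 of 6 basal and myoepithelial markers, and at 7 of 9 fibroblast and mesenchymal markers, 4 of which (Vim, Fn1, Twist2 and Pdgfrb) had a broad peak. No immune (0 of 4) or endothelial (0 of 3) marker had a peak.

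H3K4me3 is deposited by the SET1 and MLL complexes around the start sites of active and poised genes, mostly at CpG islands, where CpG dinucleotides are frequent and usually unmethylated. CFP1 brings SET1 to such DNA through a CXXC domain that binds unmethylated CpG and a PHD domain that binds H3K4me3. In many cell types, a small class of promoters carries the mark far into the gene body, and these broad domains are known for genes that define the identity of the cell.

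The DNA before the TSSs of the widest broad peaks ranged from very CpG-rich to CpG-poor, and the sequences are shown so that this can be read directly. Each line gives the 120 bp before the most upstream annotated TSS of the gene in the peak, 5′ to 3′ on the strand of the gene, in GRCm38.p6 (mm10), with CpGs in capitals. None of these bases lies in an annotated exon. The first 6 lines come from the widest broad peaks (Smad7 has none here), Hk1 is a broad peak with few CpGs around its TSS, and Gbf1, Mpp2 and Msx2 have typical peaks of the median width, 2925 bp.
Nfix, chr8:84800345-84800464, minus strand: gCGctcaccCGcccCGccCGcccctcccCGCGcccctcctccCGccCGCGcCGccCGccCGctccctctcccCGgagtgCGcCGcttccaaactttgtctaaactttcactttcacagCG
Plec, chr15:76209166-76209285, minus strand: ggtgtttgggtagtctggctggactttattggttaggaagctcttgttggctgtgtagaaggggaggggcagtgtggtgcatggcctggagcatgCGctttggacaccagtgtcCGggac
Nrp2, chr1:62703165-62703284, plus strand: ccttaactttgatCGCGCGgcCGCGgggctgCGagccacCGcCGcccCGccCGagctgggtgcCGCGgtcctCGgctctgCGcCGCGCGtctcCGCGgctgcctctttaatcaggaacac
Cdkn1b, chr6:134920281-134920400, plus strand: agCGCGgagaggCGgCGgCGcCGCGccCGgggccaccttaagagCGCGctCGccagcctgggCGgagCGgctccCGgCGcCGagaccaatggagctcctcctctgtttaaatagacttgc
Hoxc9, chr15:102976912-102977031, plus strand: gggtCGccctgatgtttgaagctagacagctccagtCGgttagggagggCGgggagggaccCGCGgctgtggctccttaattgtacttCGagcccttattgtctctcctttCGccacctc
Irf2bpl, chr12:86884799-86884918, minus strand: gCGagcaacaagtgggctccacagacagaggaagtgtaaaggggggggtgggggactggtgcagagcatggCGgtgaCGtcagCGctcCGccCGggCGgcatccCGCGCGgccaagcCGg
Hk1, chr10:62342723-62342842, minus strand: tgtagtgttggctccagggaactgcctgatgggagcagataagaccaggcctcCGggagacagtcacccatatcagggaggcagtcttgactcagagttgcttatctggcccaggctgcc
Gbf1, chr19:46152389-46152508, plus strand: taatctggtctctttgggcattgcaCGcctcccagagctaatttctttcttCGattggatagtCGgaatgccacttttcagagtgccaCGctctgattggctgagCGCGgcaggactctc
Mpp2, chr11:102088516-102088635, minus strand: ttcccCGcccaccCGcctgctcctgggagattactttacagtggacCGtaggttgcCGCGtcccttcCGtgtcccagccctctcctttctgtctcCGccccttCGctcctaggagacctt
Msx2, chr13:53473075-53473194, minus strand: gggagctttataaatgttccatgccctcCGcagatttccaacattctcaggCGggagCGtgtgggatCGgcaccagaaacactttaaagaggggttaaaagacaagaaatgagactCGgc
Nfix, Nrp2 and Cdkn1b held 16, 19 and 16 CpGs in these 120 bp, Irf2bpl 11, Hoxc9 7 and Plec 2, while Hk1 held 1. Gbf1, Mpp2 and Msx2 held 6, 8 and 5. Inhba and Spaca6, which also had few CpGs, had annotated exons up to the TSS, and no sequence is shown.

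Many of the widest members lay over genes of transcription factors. The widest, 33102 bp, lay over Nfix, a nuclear factor I transcription factor (chr8:84768242-84801343). It ran 32102 bp downstream of the TSS and 999 bp upstream, held 13 CpG islands and 4 annotated TSSs of the gene, and ended in an exon or intron after the first intron. Plec, which encodes the cytoskeletal linker plectin, had 20666 bp (chr15:76188672-76209337) with 10 of its 12 TSSs inside the peak. Nrp2, a receptor for semaphorins and VEGF, had 18370 bp (chr1:62701972-62720341). Cdkn1b, the cyclin-dependent kinase inhibitor p27, had 18196 bp (chr6:134915981-134934176), and its gene of 5113 bp lay wholly within the peak. The homeobox gene Hoxc9, 8068 bp long, was likewise covered by its peak of 17854 bp (chr15:102969674-102987527). Smad7, an inhibitor of TGF-beta signalling, followed with 17471 bp.

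The peak of Irf2bpl extended mostly the other way, 14197 bp upstream and 3100 bp downstream of the TSS (chr12:86881698-86898995, 17298 bp). Tnrc18 (16196 bp) and the AP-2 factor Tfap2a (15906 bp) completed the 9 peaks of 15000 bp or more. The 20 widest went on with Trps1, a GATA-type repressor (14787 bp), Zfp503 (14446 bp), Nfib (14178 bp) and Nfic (14014 bp). Zbtb7a, a transcriptional repressor, had 13544 bp, and Bcl9l, a cofactor of beta-catenin, had 13506 bp. Irx2 (13486 bp) and Irx5 (12637 bp) are Iroquois homeobox genes, and Kdm6b (13197 bp) encodes an H3K27 demethylase. Hoxc11 (12592 bp) and Junb, a subunit of AP-1 (12398 bp), came last.

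**Figure D1:**
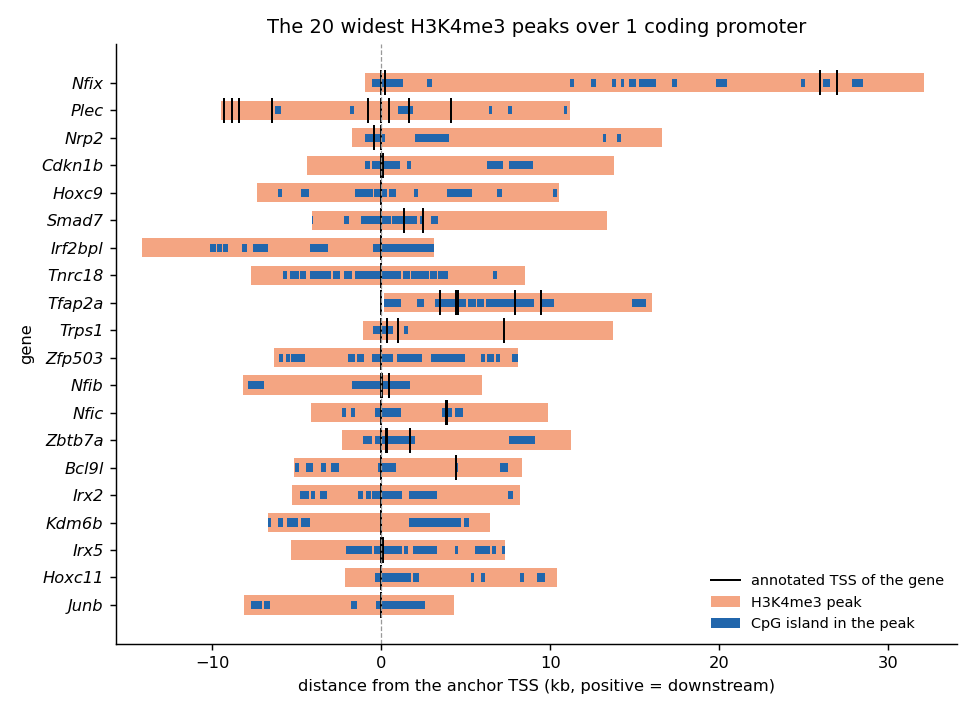
Maps of the 20 widest members, 1 row per gene, with distance from the anchor TSS in kb on the horizontal axis (positive is downstream). Orange bars are peaks, blue bars CpG islands within the peak and black ticks annotated TSSs of the gene. Nfix reached 32102 bp downstream, and Irf2bpl 14197 bp upstream.

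Most members were far narrower than these. The width that selected them had a median of 7077 bp (quartiles 6539.25 and 8442.25, range 6002 to 33102), with 285 members under 8000 bp, 80 from 8000 to 10000 bp and 45 of 10000 bp or more. Among those just inside the limit were S1pr2 (6016 bp), Pdgfc (6012 bp), Gfod1 (6010 bp) and Tet3 (6002 bp). Cd63 (5994 bp), Cnbp (5993 bp), Arhgap10 (5991 bp), Cacnb3 (5983 bp) and Tmpo (5968 bp) lay just outside. The limit therefore fell within a continuous range of widths. Bcar1, Bcl9l, Rara and Sept9 had 2 members each, over separate promoters of the gene. The pair of Rara, the retinoic acid receptor alpha gene, measured 11283 and 7423 bp.

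How far the peaks reached on each side of the promoter was measured from 1 anchor TSS per peak, the one shared by the most annotated transcripts. An anchor TSS could lie up to 250 bp outside its peak, as at Tfap2a (upstream reach -140 bp, width 15906 bp), and a reach could then exceed the width. The median downstream reach was 5467.5 bp in broad peaks (quartiles 4362.5 and 6421.75, range 813 to 32102) and 2116 bp in typical peaks. Upstream, the medians were 1797.5 bp in broad peaks and 760 bp in typical peaks. Both sides were thus longer, and the downstream share of the width was similar, with a median of 75.9% in broad and 73.7% in typical peaks. These reaches depend on the width that selected the peaks and were not tested. The longest downstream reaches after Nfix belonged to Nrp2 (16639 bp), Tfap2a (16045 bp), Cdkn1b (13775 bp) and Trps1 (13700 bp). The longest upstream reaches after Irf2bpl belonged to Plec (9502 bp), Cirbp, an RNA-binding protein gene induced by cold (9444 bp), Nfatc1 (8260 bp) and Nfib (8192 bp). A peak longer upstream than downstream was seen at 44 broad peaks (10.7%) and 275 typical peaks (5.60%).

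**Figure D2:**
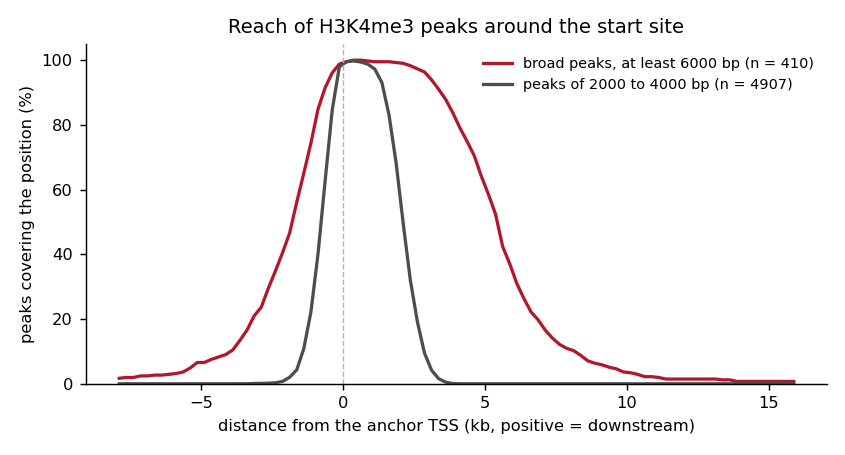
Share of peaks covering each position (%) against distance from the anchor TSS in kb, for broad (red) and typical (grey) peaks, in bins of 250 bp. At 5125 bp downstream 58.5% of broad peaks and 0% of typical peaks were still present, and at 2125 bp upstream 40.5% of broad and 0.734% of typical peaks.

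The downstream edge of the broad peaks fell further along the gene. It lay in the first intron for 205 broad peaks (50%) and 3208 typical peaks (65.4%), and in a later exon or intron for 168 broad peaks (41.0%) and 1553 typical peaks (31.6%). It lay past the end of the anchor transcript for 34 broad peaks (8.29%) and 91 typical peaks (1.85%). The whole gene was inside 33 broad peaks (8.05%) and 80 typical peaks (1.63%). These edge positions and covered genes depend on the width that selected the peaks and were not tested. Besides Cdkn1b and Hoxc9, the covered genes included Zfp503, Irx2, Hoxc11, Junb, the forkhead gene Foxc1 (8866 bp), Zfp36, which encodes an mRNA decay factor (8802 bp), the Notch target Hes1 (8723 bp) and Phlda3 (8705 bp). Gene length itself did not pass the test used for the features below, with medians of 23223.5 bp for broad and 26770 bp for typical peaks (adjusted permutation p = 0.116). The first intron was longer, with medians of 5570 bp for 397 broad peaks and 3848 bp for 4844 typical peaks (adjusted permutation p = 0.00126, longer on 17 of 19 chromosomes), a call that was lost with the most downstream TSS as anchor (adjusted permutation p = 0.237).

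Features measured without the width of the peak were compared by taking the difference between broad and typical peaks on each chromosome and flipping the signs of these differences at random (a two-sided permutation test on 19 chromosomes), with Benjamini-Hochberg adjustment over 19 tests. Both classes reach exactly 1 coding gene, a rule that leaves out wide peaks in gene-dense places. This can bear on gene length, the first intron and the upstream lncRNA share, and its effect was not tested. The p-values concern loci of this list and not the spread between replicates. DNA at fixed distances from the TSS held more CpGs at the broad peaks, whereas over the whole peak, whose width was selected, the median density was 2.84 CpGs per 100 bp in broad and 3.47 in typical peaks, which was not tested. Within 500 bp of the TSS the median was 7.7 CpGs per 100 bp in broad peaks and 6.6 in typical peaks (adjusted permutation p = 0.00125, higher on 16 of 19 chromosomes), which came to an adjusted permutation p of 0.0506 with broad peaks counted from 8000 bp. From 500 to 5000 bp downstream it was 2.01 in broad and 1.31 in typical peaks, and from 500 to 5000 bp upstream 1.38 in broad and 1.00 in typical peaks, higher on 19 of 19 chromosomes on both sides (adjusted permutation p = 7.6e-05 for each). In the bin centred 125 bp downstream the classes were close in value, with mean densities of 9.69 CpGs per 100 bp in broad and 9.83 in typical peaks. In the bin centred 125 bp upstream the means were 7.86 in broad and 6.83 in typical peaks, and at 375 bp downstream 8.32 and 7.56. Further out the means were 3.66 in broad and 1.87 in typical peaks at 1125 bp downstream.

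**Figure D3:**
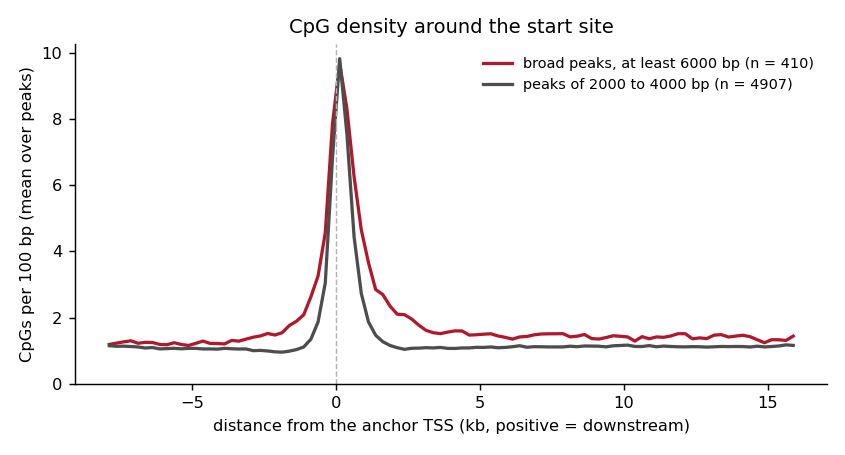
Mean CpG density (CpGs per 100 bp, bins of 250 bp) against distance from the anchor TSS in kb, for broad (red) and typical (grey) peaks. The lines meet at 125 bp downstream (9.69 in broad and 9.83 in typical peaks). They are apart at 125 bp upstream (7.86 in broad and 6.83 in typical peaks) and on the flanks (2.10 in broad and 1.09 in typical peaks at 2125 bp downstream).

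CpG islands, found here from sequence alone, were larger at the start sites of the broad peaks. The island at the anchor TSS had a median length of 1230.5 bp in broad and 953 bp in typical peaks, with promoters lacking one counted as 0 (adjusted permutation p = 7.6e-05, larger on 19 of 19 chromosomes). Island DNA within 5000 bp of the TSS amounted to a median of 1817.5 bp in broad and 1207 bp in typical peaks (adjusted permutation p = 7.6e-05, more on 19 of 19 chromosomes). The islands did not fill the broad peaks. They covered a median of 24.0% of a broad peak and 35.6% of a typical peak, and the mark thus extended over more DNA outside islands, as a description of peaks chosen for width. A median of 2 islands lay in a broad peak and 1 in a typical peak, and 52 broad peaks (12.7%) and 4 typical peaks (0.0815%) held 5 or more, counts that grow with the width that selected the peaks and were not tested. Nfix, Tnrc18 and Zfp503 had 13 each. Over all 8467 single-gene peaks, width had Spearman correlations of 0.388 with island DNA within 5000 bp and 0.373 with CpG density at the TSS. Among the broad peaks alone these correlations were 0.143 and 0.00562 (n = 410). The width limit narrowed the range of widths among the broad peaks, which by itself lowers a correlation. The values of the broad peaks and of all peaks are therefore not comparable. These are descriptions across loci that share the list and its base composition.

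The most CpG-dense broad promoters were those of Tent4a (16.9 CpGs per 100 bp within 500 bp of the TSS), Ski, a repressor of SMAD signalling (16.4), Nfix (15.6), Zcchc14 (15.1) and the retinoid X receptor gene Rxra (15.1). At the other end stood Inhba, which encodes the activin beta A subunit (0.6), the hexokinase gene Hk1 (1.0), Spaca6 (1.0) and Kdm6b (1.2). The myelin protein gene Pmp22 also had 1.2, but its anchor TSS lay outside its peak (upstream reach -237 bp). A CpG island was therefore not found at every broad promoter. The anchor TSS had none within 250 bp at 30 of 410 broad and 214 of 4907 typical peaks. At 20 of 410 broad and 185 of 4907 typical peaks no TSS of the gene in the peak had an island within 250 bp. The widest of these 20 were Kdm6b (13197 bp), Pgs1 (10786 bp), the receptor tyrosine kinase gene Axl (10773 bp), Scd2, a stearoyl-CoA desaturase gene (9762 bp), and Tns2, a focal adhesion gene (9453 bp). Fmn1 (8486 bp), the collagen gene Col6a3 (7779 bp), Pcolce (7226 bp), Angptl2 (7079 bp) and Dab2ip (6888 bp) followed. The peaks of Axl, Angptl2 and Dab2ip held 0 islands anywhere, whereas that of Kdm6b held 6 away from its TSS.

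Genes with a broad peak had slightly more annotated TSSs, a mean of 2.48 in broad and 2.14 in typical peaks (adjusted permutation p = 0.00249, more on 15 of 19 chromosomes). This call did not hold when all annotated transcripts were used (adjusted permutation p = 0.591) or without promoters facing an opposite-strand TSS (adjusted permutation p = 0.0640). It was also lost where the TSSs in the peak lay within 50 bp (adjusted permutation p = 0.333, with the sign turned). That setting selects on TSS spread, whose upper quartile was 728.75 bp in broad and 88.5 bp in typical peaks. It can remove genes with several TSSs more often from the broad class, so it cannot decide this question. The number of TSSs within 1000 bp of the anchor TSS did not pass, with means of 1.67 in broad and 1.81 in typical peaks (adjusted permutation p = 0.117). A single TSS lay in 194 broad peaks (47.3%) and 2491 typical peaks (50.8%). Tpm1, a tropomyosin gene, had the most, with 16 TSSs all within its peak of 11465 bp. Hmga1 had 14, Plec 12, the Groucho corepressor gene Tle3 10 and Arhgef2 9.

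An lncRNA start on the opposite strand within 2000 bp upstream was more frequent at the broad peaks, at 57 broad (13.9%) and 301 typical peaks (6.13%, adjusted permutation p = 0.00249, higher on 15 of 19 chromosomes). The widest of these were Smad7 with Gm20544 (441 bp from its TSS), Irx2 with Gm20554 (256 bp), Irx5 with Crnde (1794 bp), Setd1b with AI480526 (527 bp) and Bahcc1 with 2900052L18Rik (1362 bp). Setd1b encodes a catalytic subunit of SET1 itself, and its peak of 11880 bp ran 7907 bp upstream. Kif21b (10997 bp), the matrix protein gene Thbs1 (10875 bp) and Zbtb7b (9912 bp) came next.

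Promoter motifs were searched on both strands from 250 bp before to 50 bp after the anchor TSS, as exact letters. Of 9 motifs, those of ETS factors, YY1 and NRF1 passed the test, each as rarer at the broad peaks. The ETS core CCGGAAG was in 35 broad promoters (8.54%) and 987 typical promoters (20.1%), lower on 19 of 19 chromosomes (adjusted permutation p = 7.6e-05), against 11.2% of 21755 coding promoters. AAGATGG, the YY1 motif, was in 12 broad (2.93%) and 379 typical promoters (7.72%), lower on 18 of 19 chromosomes (adjusted permutation p = 0.00019, 6.27% of all). GCATGCG, the core of the NRF1 motif, was in 13 broad (3.17%) and 386 typical promoters (7.87%), lower on 15 of 19 chromosomes (adjusted permutation p = 0.00896, 4.45% of all). That call was lost with broad peaks counted from 8000 bp (adjusted permutation p = 0.641) and without promoters facing an opposite-strand TSS (adjusted permutation p = 0.250). The TATA box TATAAA was in 40 broad (9.76%) and 301 typical promoters (6.13%), which did not pass (adjusted permutation p = 0.0865, 12.5% of all).

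The 5 other motifs did not pass either. CCAAT was in 34.9% of broad and 38.7% of typical promoters, and the GC box GGGCGG in 72.4% of broad and 68.2% of typical promoters. The AP-1 site TGANTCA was in 5.12% of broad and 4.56% of typical promoters, the CRE TGACGTCA in 4.15% of broad and 4.20% of typical promoters, and the E-box CACGTG in 10.5% of broad and 11.2% of typical promoters (adjusted permutation p from 0.283 to 0.693). Among all coding promoters CCAAT was in 38.6%, the GC box in 45.1%, AP-1 in 6.67%, CRE in 2.50% and the E-box in 7.86%. The ETS counts were also taken within groups of genes. Among genes of the transcription factor lists CCGGAAG was in 2 of 63 broad and 16 of 142 typical promoters, among housekeeping lists in 2 of 11 broad and 163 of 502 typical promoters, and among all other genes in 31 of 336 broad and 808 of 4263 typical promoters. These splits were not tested. A match describes letters and is not evidence of binding.

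**Figure D4:**
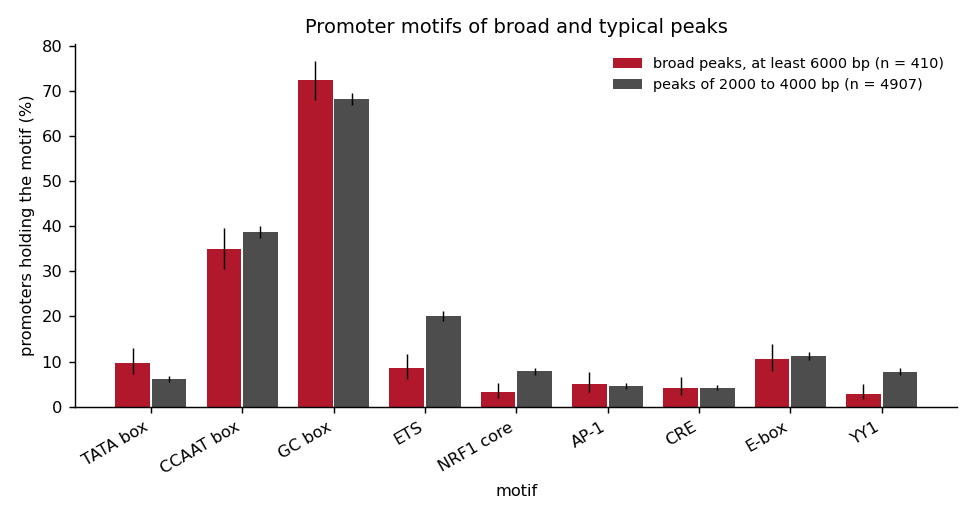
Share of promoters (%) holding each motif between 250 bp before and 50 bp after the anchor TSS, for broad (red) and typical (grey) peaks, with 95% Wilson intervals that cover counting error over loci. ETS (8.54% in broad and 20.1% in typical peaks), NRF1 core (3.17% in broad and 7.87% in typical peaks) and YY1 (2.93% in broad and 7.72% in typical peaks) stand apart.

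Gene functions were described by 42 lists, as the share of each list's genes with a single-gene peak whose widest such peak was broad, beside 4.91% of all such genes. Cell structure genes had a broad peak at 29 of 104 (27.9%), transcription factors at 62 of 332 (18.7%), signalling genes at 42 of 244 (17.2%) and chromatin genes at 12 of 119 (10.1%). The membrane class, made of solute carrier and Tmem genes only, was at 9 of 216 (4.17%). Genes of no list were at 239 of 6289 (3.80%) and housekeeping genes at 11 of 753 (1.46%). The lists were chosen with earlier results of these peaks known and width selected the members, so the shares are descriptions without a test.

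The adhesion and cytoskeleton genes had the highest share among lists with at least 10 such genes. Of the integrin, actin and focal adhesion list 20 of 57 (35.1%) were broad, with a median width of 5195 bp beside 3028 bp for all genes. After Plec came Lmna, the lamin A/C gene (12299 bp), Tpm1 (11465 bp) and Ahnak (11348 bp). Among 47 extracellular matrix genes with a single-gene peak 9 were broad (19.1%), among them Thbs1, Col6a3, the matricellular gene Ccn1 (7765 bp) and Timp2, a metalloproteinase inhibitor gene (7753 bp). Of the fibrillar collagen genes, Col1a1 and Col3a1 had no peak, whereas Col5a1 had a broad peak (6430 bp).

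Transcription factors differed by family. Of 4 nuclear factor I genes 3 were broad, and the other, Nfia, had 4228 bp. SMAD, TEAD, RUNX, MEF2 and TCF/LEF genes were broad at 7 of 24 (29.2%), with Smad7, Mef2d (11529 bp), the osteoblast regulator Runx2 (7880 bp) and the Hippo pathway factor Tead4 (6998 bp). bHLH genes were broad at 8 of 33 (24.2%), led by Hes1, Bhlhe40 (8274 bp) and the inhibitors Id2 (7721 bp) and Id1 (7639 bp). Nuclear receptors followed at 7 of 29 (24.1%), with Rara, Rarg (9423 bp), the COUP factor gene Nr2f2 (8955 bp) and the thyroid hormone receptor gene Thra (8471 bp). The bZIP genes were broad at 8 of 35 (22.9%), with Junb, Nfe2l1 (10194 bp), Fosl2 (7483 bp) and Mafk (7405 bp). Homeobox genes were broad at 11 of 59 (18.6%).

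A list of SNAIL, EGR, GLI and related zinc finger genes had 6 of 24 (25%), but it took in Zfp36 and Zfp36l1 (8077 bp), which encode RNA-binding proteins, beside Zfp503 and Glis2 (7610 bp). Lower shares were seen for forkhead genes (2 of 19, Foxc1 and Foxf2 of 7919 bp), the IRF, STAT, NF-kB and NFAT list (2 of 19, Nfatc1 of 10495 bp and Irf2 of 6151 bp), ZBTB genes (3 of 30), ETS genes (1 of 14, Erf of 7418 bp) and KLF and SP genes (1 of 17, Klf10 of 6119 bp). Sox9, a regulator of cartilage development, was the 1 of 5 SOX genes (6594 bp). E2F and p53 genes had 0 of 12, the widest being E2f8 (5698 bp), and T-box genes 0 of 4, the widest being Tbx3 (5885 bp). The numbered Zfp genes, mostly C2H2 zinc finger genes, had 8 of 233 (3.43%) and a median width of 2463 bp, with Zfp516 (9021 bp) at the top.

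Signalling genes with a broad peak included receptors, ligands and feedback inhibitors. Growth factor receptors and ligands had 10 of 36 (27.8%), with Axl, Ephb3 (8445 bp), the collagen receptor gene Ddr1 (7016 bp) and the PDGF receptor gene Pdgfrb (6884 bp). ERK phosphatases, Sprouty and Spred genes, which dampen MAP kinase signalling, had 4 of 18 (22.2%), namely Dusp4 (8036 bp), Dusp6 (6770 bp), Spry2 (6729 bp) and Dusp7 (6555 bp). TGF-beta and BMP genes had 8 of 37 (21.6%), with Smad7, Ski (9019 bp), Id2 and Id1. WNT genes had 7 of 37 (18.9%), with Bcl9l, Tle3 (9166 bp), Tle2 (8650 bp) and the coreceptor gene Lrp5 (7361 bp). Axon guidance genes had 6 of 35 (17.1%), with Nrp2, the netrin receptor gene Unc5b (10762 bp), Ephb3 and Plxnd1 (7804 bp). Notch genes had 2 of 14, Hes1 and Lfng (8954 bp). CDK inhibitors and D-type cyclins had 2 of 6, Cdkn1b and Ccnd1 (7740 bp).

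Chromatin genes with a broad peak included Setd1b, Kmt2e (7669 bp), Kmt2d (6888 bp) and Kdm6b, which made 4 of 53 (7.55%) in the H3K4 and H3K27 methylation list. Remodelers, acetylation and DNA methylation genes had 8 of 66 (12.1%), with the deacetylase gene Hdac7 (9153 bp), the corepressor gene Sin3a (8734 bp), Arid1a (7816 bp) and Hmga2 (7711 bp). Among housekeeping genes the count was 0 in 5 lists. These were the mitochondrial ribosome (0 of 46, widest Mrpl55 at 3909 bp), the respiratory chain (0 of 57, Cox14 at 5234 bp), the proteasome (0 of 33, Psme4 at 3900 bp), DNA replication and repair (0 of 61, Ercc1 at 5639 bp) and RNA polymerases, TFIID and Mediator (0 of 68, Polr2a at 5850 bp). The housekeeping exceptions included Snx9, a sorting nexin gene (10541 bp), the elongation factor gene Eef2 (7068 bp), the splicing factor gene Hnrnpl (6470 bp), and Rack1 (6377 bp) and Rps15a (6327 bp) of the cytosolic ribosome.

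**Figure D5:**
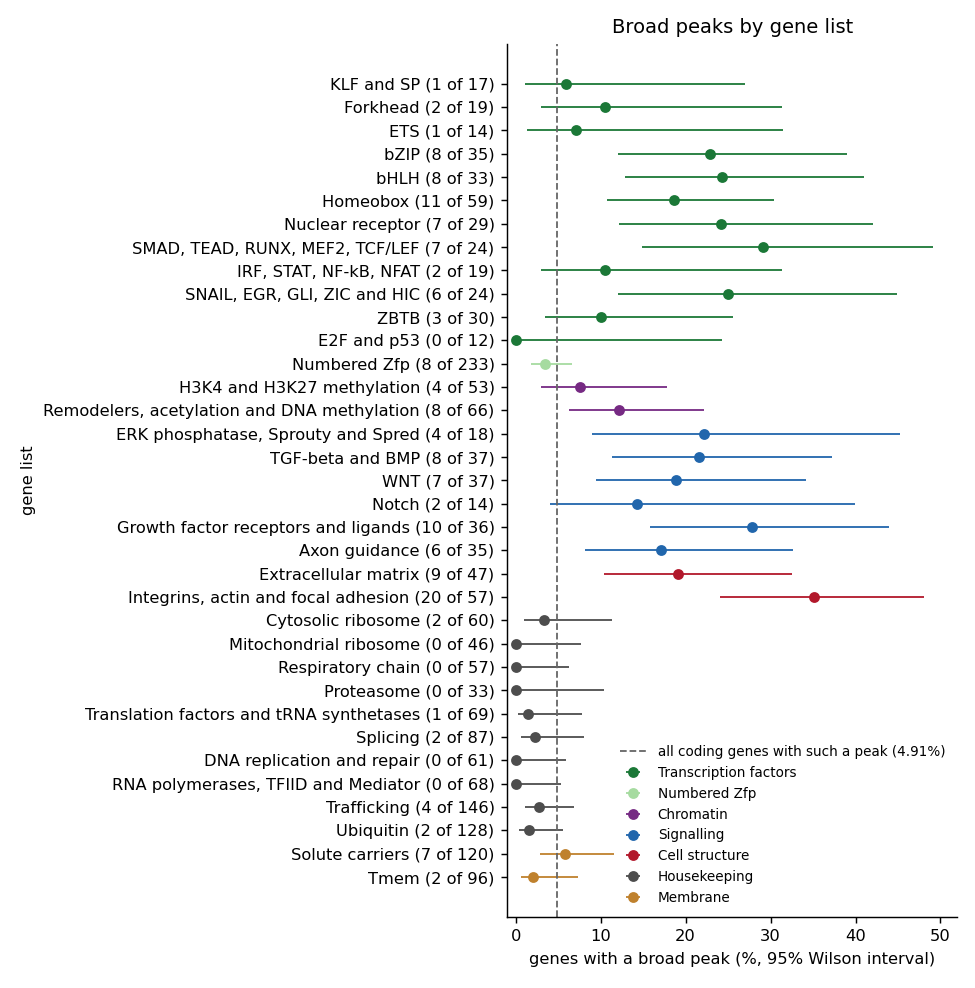
Share of genes (%) whose widest single-gene peak was broad, for lists with at least 10 such genes except 1 that is not reported, with 95% Wilson intervals for counting error over genes; counts stand beside each list and colours mark the class. The dashed line is 4.91%, the share of all genes, with integrins, actin and focal adhesion at 35.1% and 5 housekeeping lists at 0%.

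The members were spread over all 20 chromosomes, unevenly. Chromosome 15 had the highest share of its single-gene peaks broad, 35 of 359 (9.75%, 95% Wilson interval 7.09 to 13.3). The X chromosome had the lowest, 1 of 281 (0.356%, interval 0.0628 to 1.99), and that peak lay over the protocadherin gene Pcdh19 (9524 bp). Broad peaks lay closer to other H3K4me3 peaks, with a median gap of 14941.5 bp for broad and 27858 bp for typical peaks. Another peak lay within 10000 bp of 165 broad peaks (40.2%) and 1177 typical peaks (24.0%). The gaps run from edge to edge and shorten as a peak widens, so they depend on the width that selected the peaks. They were not tested.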

How the data were processed

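C127 H3K4me3 ChIP-seq was analysed from 1 list of 13451 peaks, whose deposited values are start and end positions in bp on mm10. According to the study's methods, the authors aligned reads with bowtie2, kept unique positions, removed duplicates with SAMtools, called peaks with MACS in each replicate against a control, kept those shared by all replicates and merged peaks within 250 bp. No score or depth is given, so width can depend on the merging, and no interval for depth could be made. The 4 peaks on scaffolds were left out. The members, gene lists and tests were chosen with earlier results of these data known. TSSs came from GENCODE vM21 basic (21755 coding and 9603 lncRNA genes, 52518 TSSs). CpG islands (158147) were stretches of the reference of at least 200 bp, with GC of at least 0.5 and observed over expected CpG of at least 0.6. A chromosome entered a test with at least 3 peaks of each class, which left out X. Sign flips used 100000 resamples with a threshold of 0.05, and the smallest p they can give is 1e-05. Wilson intervals cover counting error only. Genes named were those of the 20 widest members, up to 4 widest of each list, the extremes of each feature, 5 on each side of the width limit and the 10 widest without an island. The 8 widest with an opposite-strand lncRNA, the 10 widest that cover a gene, the genes with 2 members, Pcdh19 and the members of the closing section were named after their values were seen. A few of these genes and 1 list are left out of the text. The chromosome test and the island search were tested on simulated data or against a direct count. Tables were handled with pandas 2.3.3 and numpy 2.4.6 in Python 3.11.15, tests with scipy 1.17.1, and figures with matplotlib 3.10.9.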

Additional observations from a re-analysis of the deposited data

How the results depend on the processing

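Values are differences, broad minus typical peaks. Of 267 alternatives of the 19 tested results, 246 kept the direction and the side of the threshold. CpG density upstream and downstream, both island measures, the divergent lncRNA share, ETS and YY1 kept theirs under every alternative run. With broad peaks from 5000 bp there were 876, TSSs within 1000 bp (-0.088) and the GC box (8.30 points) passed, and the median downstream reach, its share and island cover were 4262 bp, 72.9% and 27.4%. From 8000 bp there were 125, CpG density at the TSS (1, adjusted permutation p = 0.0506) and the NRF1 core (-3.07 points) no longer passed, the GC box did (5.41), AP-1 turned (-0.56), reach was 7192 bp and island cover 22.3%. With the most downstream TSS as anchor the first intron no longer passed (705.5 bp), TSSs within 1000 bp did (-0.16), reach was 4804.5 bp and its share 66.4%. With all annotated transcripts TSSs per gene no longer passed (0.088), TSSs within 1000 bp did (-0.71) and CRE turned (0.058). Without opposite-strand TSSs, TSSs per gene (0.31) and the NRF1 core (-3.52) no longer passed and TSSs within 1000 bp did (-0.16). With TSSs in the peak within 50 bp, 232 broad peaks remained, TSSs per gene (-0.0024), CRE (1.55) and the E-box (0.50) turned and TSSs within 1000 bp passed (-0.11). That setting selects on TSS spread, so it cannot decide the 2 TSS counts. CRE also turned against all peaks under 6000 bp (0.46) and, in alternatives chosen after seeing the data, at anchors with an island (0.21) and without transcription factor lists (0.76). Stricter islands covered 22.3%. The cause was not tested. The lncRNA share is 0 by construction without opposite-strand TSSs and gives no value there. No paired analysis was possible because the list pools the replicates, and no replicate could be left out. Depth and peak height are unknown, so nothing here separates width from signal strength.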

Other observations

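Lipid synthesis genes and the BCL2 family stood out when the members were read through, and both lists were written after their widths were seen, so they have no test. Of 33 sterol and fatty acid synthesis genes and their regulators 28 had a single-gene peak and 9 were broad (32.1%, beside 4.91% of all genes), with a median width of 4482.5 bp. They included Scd2 (9762 bp), Hmgcs1 (7661 bp), Sqle (7539 bp), Scd1 (7011 bp), Msmo1 (6856 bp), Fasn (6803 bp) and Insig1 (6179 bp). Of the sterol regulators, Insig1 was broad, Insig2 had 4301 bp, Srebf2 3171 bp, Scap 2664 bp and Srebf1 2162 bp.

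Of 16 BCL2 family genes, which control mitochondrial apoptosis, 9 had a single-gene peak and 5 were broad (55.6%, 95% Wilson interval 26.7 to 81.1, beside 4.91% of all genes). These were the pro-survival Mcl1 (7248 bp) and Bcl2l1 (7043 bp) and the pro-death Bmf (7904 bp), Bcl2l11 (6950 bp) and Bbc3 (6085 bp). Bcl2 (4438 bp), Bid (4252 bp), Bax (3888 bp) and Bok (3022 bp) were not.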
